A study of Mus musculus with 8 samples.

Results

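The 36 genes described here belong to the mouse pathway that senses double-stranded RNA and to the interferon response it feeds. They were chosen by name from a list of 37 symbols, in which Ddx58 and Rigi are the same gene, and all 36 were among the 21812 genes of the deposited table. By role they fall into 7 sensors, 2 genes for an adaptor and an RNA editing enzyme, 5 transcription factors, 16 interferon-induced genes and 6 genes of antigen presentation.

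Cells detect double-stranded RNA, which arises during virus infection and from paired stretches of their own transcripts, with cytosolic helicases, a kinase, a synthetase and an endosomal receptor. The helicases signal through the mitochondrial adaptor MAVS to transcription factors of the IRF family, which switch on interferon genes. Secreted interferon then acts through its receptors, JAK kinases and STAT and IRF factors to raise a large set of antiviral genes, and it also raises the genes that load peptides onto major histocompatibility complex (MHC) class I. Pluripotent stem cells are known for a weak interferon response. METTL3 is the enzyme of the methyltransferase complex that adds N6-methyladenosine to RNA, VIRMA holds that complex together, and the study concerns this mark in primitive endoderm development.

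Total RNA was sequenced from mouse embryonic stem cells kept in medium that induces primitive endoderm, an extraembryonic lineage. The 8 libraries form 4 groups of 2, namely Mettl3 cKO, Mettl3 WT, Virma cKO and Virma WT. Each knockout group was compared with the WT group of its own line. The sources used here do not give what drives either deletion, how many clones each line holds or the mouse strain. No label says that the 2 libraries of a group came from separate cultures, so p-values reflect library-to-library spread, possibly technical.

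The table's values are normalised counts: they had been scaled to a common library size and rounded to whole numbers before deposit. The smallest value steps show that 1 read was worth about 2.55 and 2.76 units in the Mettl3 WT libraries, 0.947 and 1.04 in Mettl3 cKO and between 0.676 and 0.699 in the Virma libraries. The Mettl3 WT libraries, with about 6702262 and 6199799 reads in genes, were thus the shallowest, against 15995376 to 25604715 in the others, and scarce genes are measured less precisely in them. A Mettl3 WT value of 0 allows up to about 7.65 or 8.28 units, the worth of 3 reads, a limit that covers counting error only.

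The data did not check the Mettl3 label: Mettl3 itself had 588 and 560 normalised counts in the libraries labelled Mettl3 cKO, against 596 and 588 in those labelled Mettl3 WT, and a conditional deletion of some exons can leave the rest of a transcript countable. Virma had 1173 and 1214 normalised counts in Virma cKO, against 1564 and 1488 in Virma WT. Mettl3 was lower there too, with 565 and 552 normalised counts in Virma cKO, against 768 and 742 in Virma WT. The log2 fold changes in Virma cKO were -0.35 ± 0.04 for Virma and -0.43 ± 0.05 for Mettl3 (SE), so the fall was not particular to Virma. Every direction below is therefore a direction between libraries carrying these labels. The summed level of 10 primitive endoderm markers averaged 54400 normalised counts in Mettl3 cKO and 89790 in Mettl3 WT, and 8428 in Virma cKO against 78100 in Virma WT. The 10 pluripotency markers were detected in every group. Their summed level averaged 32580 normalised counts in Mettl3 cKO and 31740 in Mettl3 WT, and 23700 in Virma cKO against 33500 in Virma WT. Of 12 immune cell markers Laptm5, Cd68 and Coro1a were the ones above 50 normalised counts in a library, and Ptprc and Adgre1 were at 1 or 0. The summed level of 14 fibroblast markers, all collagen and mesenchymal genes, moved with the comparisons: it lay between 6656 and 6740 normalised counts in Mettl3 cKO, against 3610 to 3883 in Mettl3 WT, and between 20140 and 20280 in Virma cKO, against 8877 to 8923 in Virma WT. Fewer cells of a type and less RNA per cell cannot be told apart in such bulk libraries, and the part of these cell markers in the results below was not tested.

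The start regions of the genes were compared first, because interferon acts on many of its targets through short elements near the start of transcription. RefSeq promoter windows of the build GRCm38.p6 were available for 30 of the 36 genes. They were searched on both strands for the interferon-stimulated response element, spelled GAAANNGAAA, and for the gamma-activated site, spelled TTCNNNGAA. The first was present in a window of 14 of the 30 genes, against 3.44% of all 32851 windows, and the second in a window of 8, against 8.3% of all windows. The 30 genes had 36 windows, and a gene was counted if any window matched, whereas the shares are per window. By role, the response element was found in 4 of 5 sensors, 8 of 12 interferon-induced genes, 1 of 5 transcription factors, neither of the adaptor and the editing enzyme, and 1 of 6 antigen presentation genes, which was B2m. A match is a description of these letters and not evidence of a site in use. Only these exact spellings were searched, so an element spelled otherwise was missed, and no match does not show that a gene lacks an element.

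The windows of 6 of the genes described below are printed here. Cxcl10, Psmb8, Mavs and H2-K1 had the largest fitted changes in 1 direction in both lines among genes with a window, although Cxcl10 was listed at 0 in Mettl3 WT. Rsad2, the gene with the largest difference between the lines, and Isg15 were added after their values were seen. Capitals mark either element on either strand, and all sequences run 5′ to 3′ along the gene.
Cxcl10: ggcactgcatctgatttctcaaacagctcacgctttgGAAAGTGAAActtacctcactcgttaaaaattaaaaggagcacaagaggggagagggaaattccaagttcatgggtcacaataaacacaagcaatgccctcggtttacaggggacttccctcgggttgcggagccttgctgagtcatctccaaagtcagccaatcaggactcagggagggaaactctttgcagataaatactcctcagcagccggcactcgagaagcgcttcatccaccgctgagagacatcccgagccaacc
Rsad2: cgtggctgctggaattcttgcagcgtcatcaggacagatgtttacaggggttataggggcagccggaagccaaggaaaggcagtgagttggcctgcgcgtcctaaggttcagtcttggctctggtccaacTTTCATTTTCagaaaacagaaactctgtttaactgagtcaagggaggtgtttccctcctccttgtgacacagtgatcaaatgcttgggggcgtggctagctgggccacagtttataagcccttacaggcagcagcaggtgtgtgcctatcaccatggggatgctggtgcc
Isg15: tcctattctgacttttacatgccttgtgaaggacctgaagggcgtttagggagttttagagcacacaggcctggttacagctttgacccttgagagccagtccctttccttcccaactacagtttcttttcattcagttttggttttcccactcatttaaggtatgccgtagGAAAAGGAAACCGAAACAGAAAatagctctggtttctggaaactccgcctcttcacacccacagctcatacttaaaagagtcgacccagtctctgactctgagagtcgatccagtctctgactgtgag
Psmb8: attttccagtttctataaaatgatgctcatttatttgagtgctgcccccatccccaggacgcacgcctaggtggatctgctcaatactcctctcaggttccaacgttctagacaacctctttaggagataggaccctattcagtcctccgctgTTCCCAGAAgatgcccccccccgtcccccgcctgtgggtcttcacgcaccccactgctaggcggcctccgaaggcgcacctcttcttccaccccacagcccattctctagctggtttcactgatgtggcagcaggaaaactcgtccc
Mavs: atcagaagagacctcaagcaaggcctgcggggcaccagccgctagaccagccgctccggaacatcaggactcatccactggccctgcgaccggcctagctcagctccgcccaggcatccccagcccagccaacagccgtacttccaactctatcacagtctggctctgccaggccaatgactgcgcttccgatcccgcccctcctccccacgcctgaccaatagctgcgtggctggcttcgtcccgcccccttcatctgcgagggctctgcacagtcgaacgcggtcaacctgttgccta
H2-K1: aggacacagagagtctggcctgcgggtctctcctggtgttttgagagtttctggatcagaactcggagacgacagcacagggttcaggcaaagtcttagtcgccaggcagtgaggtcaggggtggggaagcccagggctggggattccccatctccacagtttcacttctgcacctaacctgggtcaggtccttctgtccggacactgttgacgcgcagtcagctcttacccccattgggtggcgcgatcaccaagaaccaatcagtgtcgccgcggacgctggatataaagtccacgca
The windows are chr5:92348840-92349139 on the minus strand for Cxcl10, chr12:26456403-26456702 on the minus strand for Rsad2 and chr4:156200769-156201068 on the minus strand for Isg15. Those of the other genes are chr17:34197945-34198244 on the plus strand for Psmb8, chr2:131233813-131234112 on the plus strand for Mavs and chr17:34000298-34000597 on the minus strand for H2-K1. The response element began 213 bases before the start of Cxcl10 and 120 bases before that of Rsad2, and Isg15 had 3 overlapping elements beginning 78, 72 and 66 bases before its start. Psmb8 had a gamma-activated site 97 bases before its start. Neither exact spelling was found in these letters of Mavs or H2-K1, which does not show that either gene lacks an interferon element. The window of H2-K1 was identical to that of H2-D1, a further MHC class I gene, at 218 of 239 aligned bases.

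Most of the genes were expressed at a low level. Per kilobase of exon, the median of the 36 genes was 27.9 normalised counts in Mettl3 cKO, 25.1 in Mettl3 WT, 43 in Virma cKO and 28.8 in Virma WT, whereas the median of all tested genes was 82.6, 83.8, 86 and 82.4 in the same groups. In Mettl3 cKO the highest levels per kilobase were those of Bst2, an antiviral tether of the cell surface, with 772 normalised counts, the MHC class I heavy chain H2-K1 and its partner B2m with 635 each, and Trim25, a ubiquitin ligase, with 414. The lowest was Ifit1, a binder of viral RNA ends, with 0.565. Tlr3, Irf7, Ifit1, Ifit3 and Usp18 averaged under 10 normalised counts over the 8 libraries and were not tested, which left 31 of the 36 genes. Ifit3, a relative of Ifit1, had 0 and 4 normalised counts in Mettl3 cKO, against 5 and 0 in Mettl3 WT, and 4 and 3 in Virma cKO, against 4 and 6 in Virma WT.

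**Figure D1:**
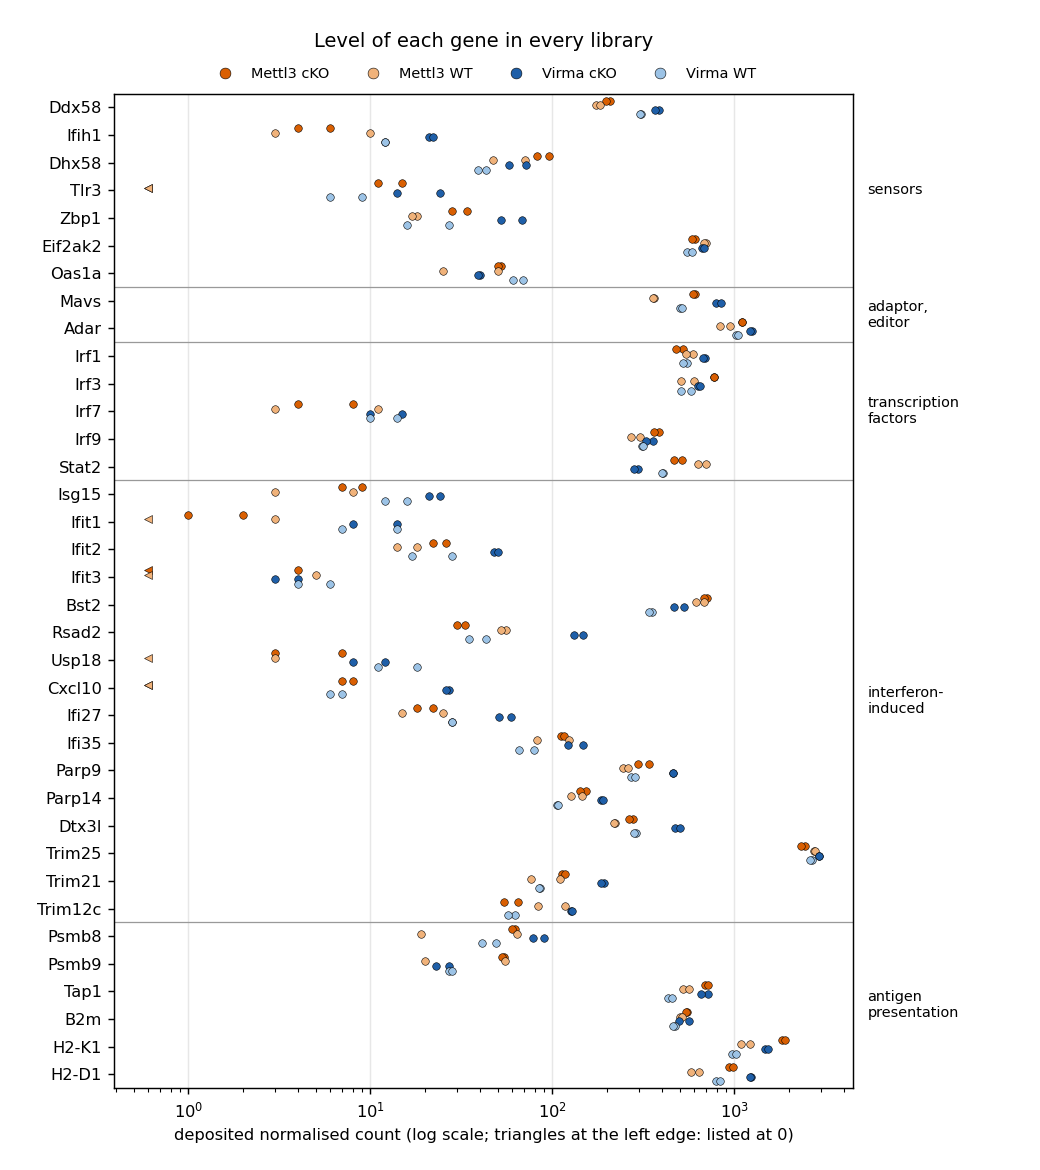
Level of each of the 36 genes in every library, in deposited normalised counts on a log axis, with groups by colour and roles separated by lines. Triangles at the left edge are libraries in which the gene is listed at 0, as for Tlr3 and Cxcl10 in both Mettl3 WT libraries.

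Both knockouts held more genes with higher than with lower levels, with different tallies. In Mettl3 cKO over Mettl3 WT, 12 of the 31 tested genes were called higher and 5 lower at an adjusted p under 0.05 (limma on log2 values with a pseudocount of 4, Benjamini-Hochberg adjustment over 13740 genes), where 25.8% of all tested genes were higher and 27.6% lower. In Virma cKO over Virma WT, 26 were higher and 2 lower, where 34.9% of all tested genes were higher and 36.5% lower. The median log2 fold change of the 31 genes was 0.32 in the Mettl3 comparison and 0.61 in the Virma comparison, against -0.0046 and -0.0041 over all tested genes. Fold changes here and below are on the log2(value + 4) scale, which understates those of scarce genes. With scaling by total counts the median over all genes in the Virma comparison moved to 0.14 and the share of its calls that were higher to 64.4%, against 48.9% here, and the split among the 31 genes was 28 higher and 2 lower.

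The number of genes called higher in both lines was 11, where 15.8% of all tested genes were. They were Dhx58, Mavs, Adar, Irf3, Cxcl10, Parp9, Dtx3l, Psmb8, Tap1, H2-K1 and H2-D1. Stat2 was lower in both, where 17.2% of all tested genes were. Eif2ak2, Rsad2, Trim25 and Trim12c were lower in Mettl3 cKO and higher in Virma cKO, where 8.97% of all tested genes were called in opposite directions. Irf9 was called higher in the Mettl3 comparison alone, 11 genes were called higher and Oas1a lower in the Virma comparison alone, and Isg15 and Psmb9 were called in neither.

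**Figure D2:**
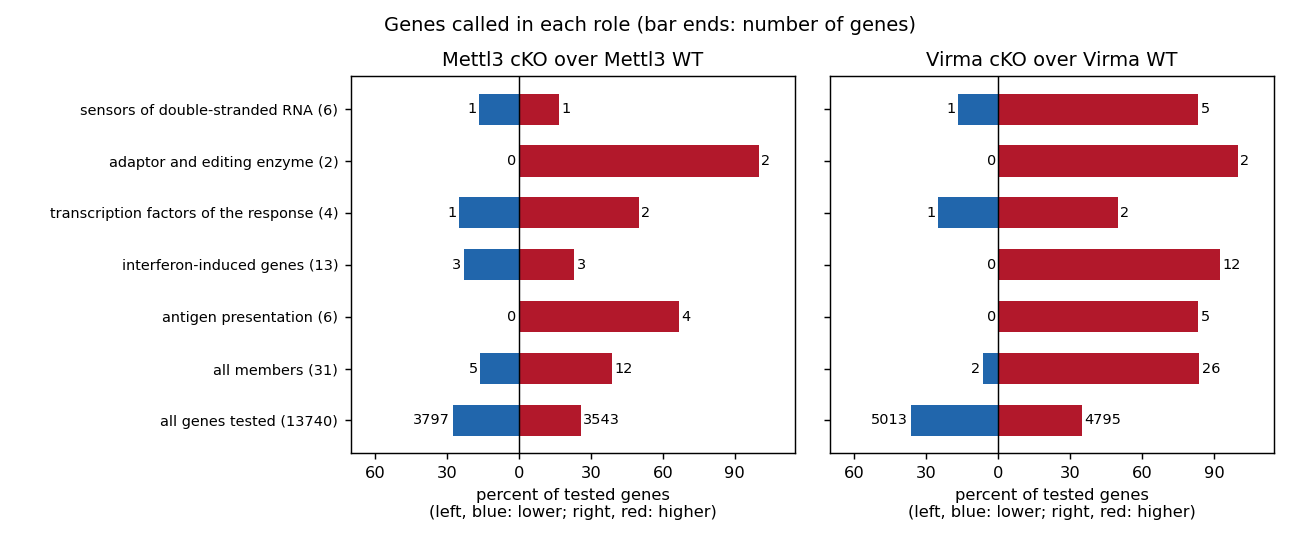
Percent of the tested genes of each role called higher (right) and lower (left) in each knockout, with the number of genes at the bar ends and all 13740 tested genes in the last row. The interferon-induced genes show 3 higher and 3 lower in Mettl3 cKO, and 12 higher and 0 lower in Virma cKO.

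Of the 6 sensors tested, Dhx58 was the one called in the same direction in both lines. In Mettl3 cKO 1 of the 6 rose and 1 fell, with a median log2 fold change of 0.33, and in Virma cKO 5 rose and 1 fell, with a median of 0.46. Over all tested genes 25.8% rose and 27.6% fell in Mettl3 cKO, and 34.9% rose and 36.5% fell in Virma cKO. The summed level of all 7 averaged 988 ± 9.90 normalised counts in Mettl3 cKO and 989 ± 15.6 in Mettl3 WT, and 1255 ± 29.7 in Virma cKO against 1019 ± 15.6 in Virma WT (SD, n = 2 each). Eif2ak2 made up more than all other sensors together in every group and fell in Mettl3 cKO; without it the sums were 391 ± 1.41 in Mettl3 cKO and 298 ± 1.41 in Mettl3 WT, and 582.5 ± 13.4 in Virma cKO against 451.5 ± 6.36 in Virma WT (SD, n = 2 each).

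Dhx58 encodes LGP2, which modulates the other helicases. It had 82 and 96 normalised counts in Mettl3 cKO, against 71 and 47 in Mettl3 WT, and 58 and 72 in Virma cKO, against 43 and 39 in Virma WT. Knockout libraries lay above WT libraries in both lines. The log2 fold change was 0.58 ± 0.24 in Mettl3 cKO (SE; limma adjusted p = 0.0326) and 0.61 ± 0.16 in Virma cKO (SE; limma adjusted p = 0.000551). Without Mettl3 WT replicate 2 the Mettl3 change was 0.31 and the call was lost, as it was without Mettl3 cKO replicate 2, with the length and GC trend removed and with no filter on low values.

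Eif2ak2, the kinase PKR that stops translation on binding double-stranded RNA, went in opposite directions. It had 605 and 589 normalised counts in Mettl3 cKO, against 703 and 679 in Mettl3 WT, and 661 and 684 in Virma cKO, against 552 and 583 in Virma WT. All 4 knockout libraries lay within the range of the 4 WT libraries, whose pairs stood apart. The fitted change (log2) was -0.21 ± 0.08 in Mettl3 cKO (SE; limma adjusted p = 0.0245) and 0.24 ± 0.05 in Virma cKO (SE; limma adjusted p = 6.8e-05). The Mettl3 call was lost without either Mettl3 WT library, without Mettl3 cKO replicate 2, with total-count scaling and with the length and GC trend removed (-0.04), and against Virma WT the Mettl3 cKO value was 0.073.

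Zbp1 senses left-handed double-stranded nucleic acid and can trigger cell death. It had 28 and 34 normalised counts in Mettl3 cKO, against 18 and 17 in Mettl3 WT, and 52 and 68 in Virma cKO, against 16 and 27 in Virma WT. Knockout and WT libraries did not overlap in either line. The gene rose in Virma cKO by 1.35 ± 0.21 (log2, SE; limma adjusted p = 1.26e-07), and its change in Mettl3 cKO, 0.70 ± 0.32 (log2, SE; limma adjusted p = 0.0597), did not pass. It did pass there with total-count scaling and with 1 variance for all groups.

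Ddx58, which encodes the helicase RIG-I, had 207 and 197 normalised counts in Mettl3 cKO, against 173 and 182 in Mettl3 WT, and 388 and 367 in Virma cKO, against 307 and 302 in Virma WT. The larger step for this gene was between the lines: each Virma library exceeded each Mettl3 library. It rose in Virma cKO by 0.31 ± 0.08 (log2, SE; limma adjusted p = 0.000703) and did not pass in Mettl3 cKO, at 0.18 ± 0.12 (log2, SE; limma adjusted p = 0.203), though it passed there at 0.36 with the length and GC trend removed. Against Virma WT it was lower in Mettl3 cKO, at -0.58 (log2). Ifih1, which encodes MDA5, had 6 and 4 normalised counts in Mettl3 cKO, against 10 and 3 in Mettl3 WT, and 21 and 22 in Virma cKO, against 12 in both Virma WT libraries. It was called higher in Virma cKO at 0.67 ± 0.30 (log2, SE; limma adjusted p = 0.0398), a call that was lost without any 1 of the 4 Virma libraries, and it did not pass in Mettl3 cKO.

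Oas1a encodes a synthetase whose product activates RNase L. It had 52 and 50 normalised counts in Mettl3 cKO, against 25 and 50 in Mettl3 WT, and 40 and 39 in Virma cKO, against 69 and 61 in Virma WT. The 2 Mettl3 WT libraries differed more from each other than the Mettl3 groups did. Oas1a was the sensor that fell in Virma cKO, at -0.66 ± 0.18 (log2, SE; limma adjusted p = 0.000723), and it did not pass in Mettl3 cKO, although without Mettl3 WT replicate 2 it passed as higher at 0.92. Oas1a has close paralogues, so its values are uncertain. Tlr3, the endosomal receptor, had 15 and 11 normalised counts in Mettl3 cKO and is listed at 0 in both Mettl3 WT libraries, and it had 14 and 24 normalised counts in Virma cKO, against 9 and 6 in Virma WT. It was below the filter and was not tested.

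Mavs, the adaptor on mitochondria, had 612 and 590 normalised counts in Mettl3 cKO, against 364 and 356 in Mettl3 WT, and 794 and 850 in Virma cKO, against 502 and 513 in Virma WT. The gap between groups was several times the gap within any pair. Its log2 fold change was 0.73 ± 0.09 in Mettl3 cKO (SE; limma adjusted p = 1.22e-10) and 0.69 ± 0.06 in Virma cKO (SE; limma adjusted p = 2.59e-16), with a difference between the lines of -0.04 ± 0.10 (SE; limma adjusted p = 0.763). Its level also differed between the controls, being higher in Virma WT than in Mettl3 WT by 0.49 ± 0.08 (log2, SE; limma adjusted p = 1.68e-06), and against Virma WT the change in Mettl3 cKO was 0.24 and still passed.

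Adar encodes an enzyme that edits adenosine in double-stranded RNA and so hides self RNA from MDA5. It had 1097 and 1104 normalised counts in Mettl3 cKO, against 836 and 946 in Mettl3 WT, and 1252 and 1219 in Virma cKO, against 1023 and 1047 in Virma WT. Each knockout library exceeded each WT library of either line. The log2 fold change was 0.31 ± 0.07 in Mettl3 cKO (SE; limma adjusted p = 7.36e-05) and 0.25 ± 0.04 in Virma cKO (SE; limma adjusted p = 8.26e-07). Against Virma WT the Mettl3 cKO value was 0.09 and did not pass.

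Of the 4 transcription factors tested, 2 rose and 1 fell in each line, with medians of 0.10 in Mettl3 cKO and 0.18 in Virma cKO (log2). Among all tested genes 25.8% rose and 27.6% fell in Mettl3 cKO, and 34.9% rose and 36.5% fell in Virma cKO. With 4 genes these counts say little about the role. Irf3, which sensors activate through MAVS, had 777 and 770 normalised counts in Mettl3 cKO, against 510 and 599 in Mettl3 WT, and 630 and 648 in Virma cKO, against 507 and 576 in Virma WT. Both knockout pairs lay above all 4 WT libraries. The change was 0.48 ± 0.09 (log2, SE; limma adjusted p = 3.16e-06) in Mettl3 cKO and 0.24 ± 0.06 (log2, SE; limma adjusted p = 0.000202) in Virma cKO. The Virma call was lost without Virma WT replicate 1, at 0.15.

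Stat2 and Irf9 belong to the factor that type I interferon activates, and they moved apart in Mettl3 cKO. Stat2 had 518 and 464 normalised counts in Mettl3 cKO, against 630 and 695 in Mettl3 WT, and 296 and 280 in Virma cKO, against 406 and 402 in Virma WT. It was lower in the knockout libraries of each line, while both Mettl3 cKO libraries lay above both Virma WT libraries. The fitted change (log2) was -0.43 ± 0.10 in Mettl3 cKO (SE; limma adjusted p = 0.000145) and -0.48 ± 0.06 in Virma cKO (SE; limma adjusted p = 1.83e-09). Against Virma WT the Mettl3 cKO value turned to 0.28, higher, and passed. Irf9 had 385 and 363 normalised counts in Mettl3 cKO, against 303 and 270 in Mettl3 WT, and 356 and 326 in Virma cKO, against 310 and 315 in Virma WT. It rose in Mettl3 cKO by 0.38 ± 0.11 (log2, SE; limma adjusted p = 0.00266), a call lost without Mettl3 WT replicate 2, and did not pass in Virma cKO, at 0.12 ± 0.07 (log2, SE; limma adjusted p = 0.128).

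Irf1, a factor that interferon itself induces, had 524 and 480 normalised counts in Mettl3 cKO, against 594 and 546 in Mettl3 WT, and 689 and 672 in Virma cKO, against 547 and 524 in Virma WT. Only the Virma cKO pair stood clear of all other libraries. The gene rose in Virma cKO by 0.34 ± 0.06 (log2, SE; limma adjusted p = 3.93e-07) and did not pass in Mettl3 cKO, at -0.18 ± 0.09 (log2, SE; limma adjusted p = 0.0671), though it passed as lower there without Mettl3 cKO replicate 1 (-0.24), with the length and GC trend removed and with 1 variance for all groups. Irf7, the factor that amplifies interferon production, stayed between 3 and 15 normalised counts and was not tested.

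Of the 13 interferon-induced genes tested, 3 rose and 3 fell in Mettl3 cKO, with a median log2 fold change of 0.16, whereas in Virma cKO 12 rose and none fell, with a median of 0.86. The shares over all tested genes were 25.8% higher and 27.6% lower in Mettl3 cKO, near the counts here. They were 34.9% higher and 36.5% lower in Virma cKO. The summed level of all 16 averaged 4205 ± 139 normalised counts in Mettl3 cKO and 4416 ± 90.5 in Mettl3 WT, and 5330 ± 36.1 in Virma cKO against 4001 ± 59.4 in Virma WT (SD, n = 2 each). Trim25 exceeded all the others together in every group and set the direction of the Mettl3 one; without it the other genes summed to 1820 ± 67.9 in Mettl3 cKO and 1656 ± 72.8 in Mettl3 WT, and to 2404 ± 31.1 in Virma cKO against 1374 ± 16.3 in Virma WT (SD, n = 2 each). Beside this, fibroblast markers were higher in 13 of 14 cases in Mettl3 cKO and in 14 of 14 in Virma cKO, and their part in the result was not tested.

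**Figure D3:**
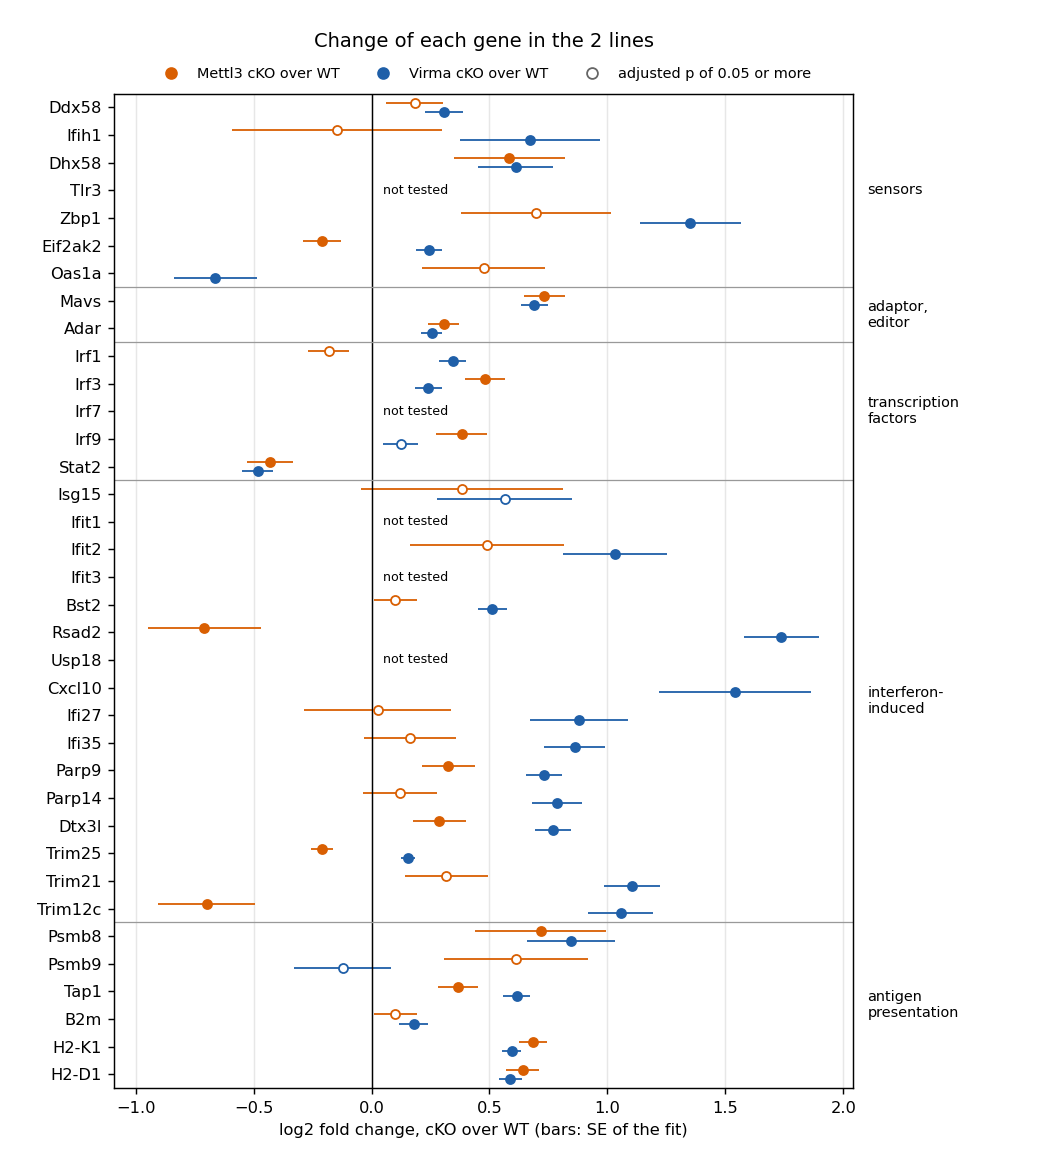
Log2 fold change of each tested gene in Mettl3 cKO over WT and in Virma cKO over WT, with bars for the SE of the fit and open symbols where the adjusted p was 0.05 or more. Cxcl10 has no Mettl3 value because it is listed at 0 in both Mettl3 WT libraries, and Rsad2 and Trim12c lie on opposite sides of 0 in the lines.

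Rsad2, which encodes viperin, an antiviral enzyme that makes a chain-terminating nucleotide, had 33 and 30 normalised counts in Mettl3 cKO, against 56 and 52 in Mettl3 WT, and 147 and 131 in Virma cKO, against 43 and 35 in Virma WT. The Virma cKO pair stood far above every other library and the Mettl3 cKO pair below every other library. Its log2 fold change was -0.71 ± 0.24 in Mettl3 cKO (SE; limma adjusted p = 0.0103) and 1.74 ± 0.16 in Virma cKO (SE; limma adjusted p = 1.15e-14). The fall in Mettl3 cKO did not pass without Mettl3 WT replicate 1 (-0.66) or against Virma WT, where it was -0.27.

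Trim12c, a member of the tripartite motif family, also went in opposite directions. It had 65 and 54 normalised counts in Mettl3 cKO, against 117 and 83 in Mettl3 WT, and 127 and 129 in Virma cKO, against 62 and 57 in Virma WT. Groups did not overlap within a line, but the Mettl3 cKO and the Virma WT libraries did. The log2 fold change was -0.70 ± 0.21 in Mettl3 cKO (SE; limma adjusted p = 0.00333) and 1.06 ± 0.14 in Virma cKO (SE; limma adjusted p = 8.68e-10). Trim12c has near-identical neighbours and its values are uncertain, its Mettl3 call was lost without Mettl3 WT replicate 1 (-0.46), and against Virma WT the Mettl3 cKO value was -0.0043.

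Trim25, the ubiquitin ligase that helps RIG-I signal, was abundant enough for small changes to pass. It had 2435 and 2335 normalised counts in Mettl3 cKO, against 2748 and 2773 in Mettl3 WT, and 2922 and 2929 in Virma cKO, against 2658 and 2597 in Virma WT. The Mettl3 cKO pair was the lowest and the Virma cKO pair the highest of the 4. The change was -0.21 ± 0.05 (log2, SE; limma adjusted p = 9.05e-05) in Mettl3 cKO and 0.15 ± 0.03 (log2, SE; limma adjusted p = 1.13e-05) in Virma cKO.

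Cxcl10, a chemokine that draws T cells and that interferon induces, was scarce everywhere. It had 7 and 8 normalised counts in Mettl3 cKO and is listed at 0 in both Mettl3 WT libraries, and it had 27 and 26 normalised counts in Virma cKO, against 7 and 6 in Virma WT. The Mettl3 cKO libraries were thus near the Virma WT libraries. Their values were close to what 3 reads are worth in the Mettl3 WT libraries, 7.65 and 8.28 units. The gene passed in Mettl3 cKO (limma adjusted p = 0.006), a call lost with a pseudocount of 16 and against Virma WT. It rose in Virma cKO by 1.54 ± 0.32 (log2, SE; limma adjusted p = 2.67e-05).

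Parp14, Dtx3l and Parp9 lie next to one another on chromosome 16 and encode ADP-ribosyltransferases and the ubiquitin ligase that pairs with PARP9. Dtx3l had 276 and 263 normalised counts in Mettl3 cKO, against 222 and 218 in Mettl3 WT, and 471 and 505 in Virma cKO, against 289 and 280 in Virma WT. Parp9 had 340 and 295 normalised counts in Mettl3 cKO, against 245 and 259 in Mettl3 WT, and 463 and 460 in Virma cKO, against 270 and 283 in Virma WT. Both were highest in Virma cKO, and all 3 neighbours rose there, with log2 fold changes of 0.79 ± 0.11 for Parp14, 0.77 ± 0.08 for Dtx3l and 0.73 ± 0.07 for Parp9 (SE). In Mettl3 cKO the changes were 0.12 ± 0.16 for Parp14, which did not pass, 0.29 ± 0.11 for Dtx3l and 0.33 ± 0.11 for Parp9 (log2, SE). The calls for Dtx3l and Parp9 there were lost without Mettl3 cKO replicate 1 and without Mettl3 WT replicate 1, that for Dtx3l also without Mettl3 WT replicate 2, and against Virma WT Dtx3l was at -0.077 and did not pass.

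A further 6 induced genes rose in Virma cKO and did not pass in Mettl3 cKO, Parp14 among them. Parp14 had 154 and 142 normalised counts in Mettl3 cKO, against 145 and 127 in Mettl3 WT, and 184 and 191 in Virma cKO, against 106 and 108 in Virma WT. Trim21, an intracellular antibody receptor, had 113 and 117 normalised counts in Mettl3 cKO, against 76 and 110 in Mettl3 WT, and 193 and 184 in Virma cKO, against 86 and 85 in Virma WT. In both genes the Virma cKO pair was the highest, and the rise of Trim21 there was 1.10 ± 0.12 (log2, SE; limma adjusted p = 2.35e-12). Bst2 had 712 and 683 normalised counts in Mettl3 cKO, against 617 and 684 in Mettl3 WT, and 469 and 529 in Virma cKO, against 355 and 341 in Virma WT. It rose in Virma cKO by 0.51 ± 0.06 (log2, SE; limma adjusted p = 5.74e-11), although both groups of the Mettl3 line lay above both groups of the Virma line.

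Ifi35, a partner of transcription regulators, had 111 and 116 normalised counts in Mettl3 cKO, against 82 and 124 in Mettl3 WT, and 148 and 122 in Virma cKO, against 66 and 79 in Virma WT. Ifit2, a relative of IFIT1, had 22 and 26 normalised counts in Mettl3 cKO, against 18 and 14 in Mettl3 WT, and 48 and 50 in Virma cKO, against 28 and 17 in Virma WT. Ifi27, a small membrane protein, had 18 and 22 normalised counts in Mettl3 cKO, against 15 and 25 in Mettl3 WT, and 51 and 59 in Virma cKO, against 28 in both Virma WT libraries. The changes in Virma cKO were 0.86 ± 0.13 for Ifi35, 1.03 ± 0.22 for Ifit2 and 0.88 ± 0.21 for Ifi27 (log2, SE). Without Mettl3 WT replicate 2, Trim21 passed as higher in Mettl3 cKO too, at 0.57 (log2).

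Isg15, a ubiquitin-like modifier whose window holds 3 overlapping response elements, was called in neither line. It had 9 and 7 normalised counts in Mettl3 cKO, against 3 and 8 in Mettl3 WT, and 24 and 21 in Virma cKO, against 16 and 12 in Virma WT. Its change was 0.38 ± 0.43 in Mettl3 cKO (log2, SE; limma adjusted p = 0.469) and 0.56 ± 0.29 in Virma cKO (log2, SE; limma adjusted p = 0.0728). The Virma cKO libraries lay above the Virma WT libraries, and the change passed there with a pseudocount of 16, with total-count scaling, in a fit of that line alone and with the length and GC trend removed. Usp18, which removes ISG15 and damps the receptor, had 7 and 3 normalised counts in Mettl3 cKO, against 3 and 0 in Mettl3 WT, and 12 and 8 in Virma cKO, against 11 and 18 in Virma WT. Ifit1 had 1 and 2 normalised counts in Mettl3 cKO, against 0 and 3 in Mettl3 WT, and 14 and 8 in Virma cKO, against 14 and 7 in Virma WT, and neither gene was tested.

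**Figure D4:**
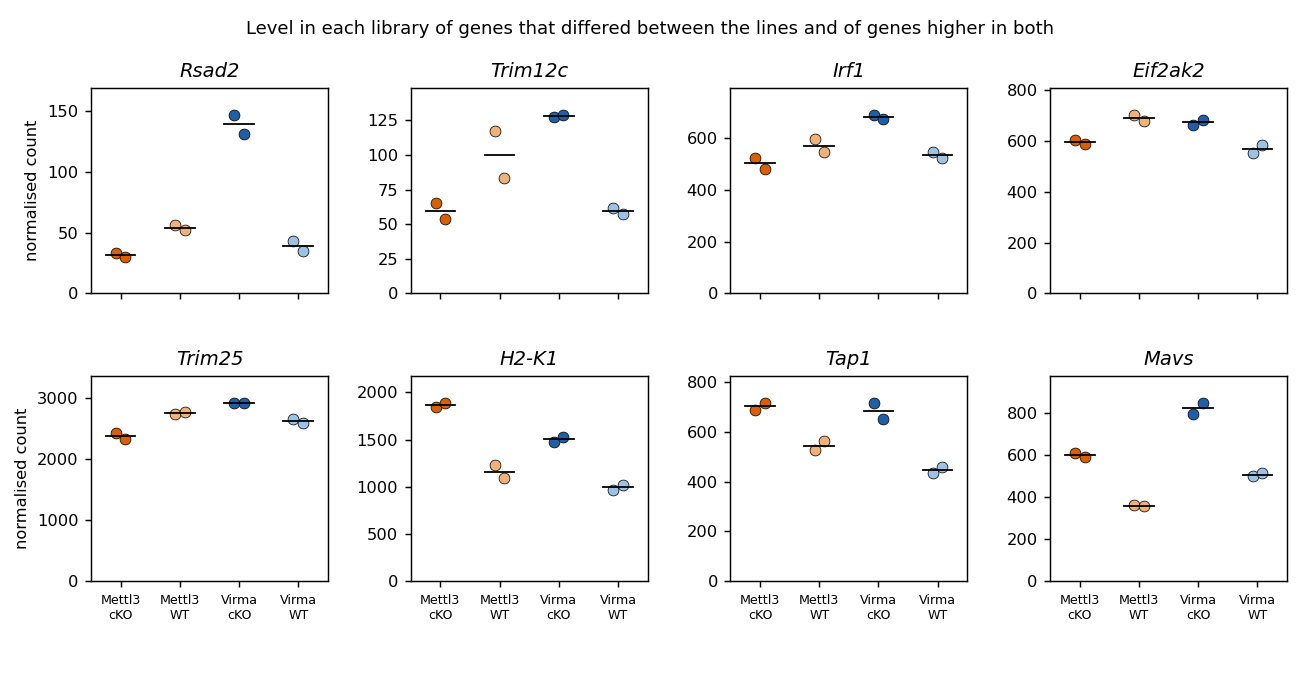
Deposited normalised counts in each library for 8 genes, with a line at the group mean and axes starting at 0. Rsad2, Trim12c, Eif2ak2 and Trim25 lie in opposite directions in the lines, Irf1 was called higher in Virma cKO alone, and H2-K1, Tap1 and Mavs are higher in both knockouts than in both WT groups.

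Among the antigen presentation genes, the class I heavy chains and the peptide transporter rose in both lines. In Mettl3 cKO 4 of 6 rose and none fell, with a median log2 fold change of 0.63, and in Virma cKO 5 rose and none fell, with a median of 0.59. Over all tested genes 25.8% rose and 27.6% fell in Mettl3 cKO, and 34.9% rose and 36.5% fell in Virma cKO. The summed level of the 6 genes averaged 4184 ± 84.1 normalised counts in Mettl3 cKO and 2904 ± 23.3 in Mettl3 WT, and 4052 ± 24.7 in Virma cKO against 2793 ± 75.0 in Virma WT (SD, n = 2 each), with no overlap between knockout and WT libraries. The fibroblast markers were higher in both knockouts here too, and their part in the result was not tested.

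H2-K1, a heavy chain of MHC class I, had 1840 and 1891 normalised counts in Mettl3 cKO, against 1226 and 1095 in Mettl3 WT, and 1471 and 1531 in Virma cKO, against 971 and 1016 in Virma WT. H2-D1, a further heavy chain, had 933 and 978 normalised counts in Mettl3 cKO, against 581 and 643 in Mettl3 WT, and 1237 and 1218 in Virma cKO, against 793 and 838 in Virma WT. For both genes each knockout library exceeded each WT library of either line. H2-K1 rose by 0.69 ± 0.06 in Mettl3 cKO (log2, SE; limma adjusted p = 1.14e-14) and by 0.59 ± 0.04 in Virma cKO (log2, SE; limma adjusted p = 8.18e-20). H2-D1 rose by 0.64 ± 0.07 (log2, SE; limma adjusted p = 2.36e-11) and 0.59 ± 0.05 (log2, SE; limma adjusted p = 8.68e-17) in the same comparisons. The 2 genes are near-copies, so reads may be split between them or set aside, and their levels are uncertain to that degree.

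Tap1, a subunit of the transporter that carries peptides to class I, had 687 and 717 normalised counts in Mettl3 cKO, against 525 and 563 in Mettl3 WT, and 715 and 653 in Virma cKO, against 433 and 457 in Virma WT. The knockout libraries of both lines lay above all WT libraries. It rose by 0.37 ± 0.09 (log2, SE; limma adjusted p = 0.000254) in Mettl3 cKO and by 0.61 ± 0.06 (log2, SE; limma adjusted p = 1.79e-14) in Virma cKO. Psmb9, a subunit of the immunoproteasome that is transcribed away from Tap1 on the opposite strand, shares 275 bases of its 300-base window with that of Tap1. It had 54 and 53 normalised counts in Mettl3 cKO, against 20 and 55 in Mettl3 WT, and 27 and 23 in Virma cKO, against 27 and 28 in Virma WT, and passed in neither line. Per kilobase its level in Mettl3 cKO was 14.6 normalised counts, against 128 for Tap1, and the 2 Mettl3 WT libraries differed more from each other than the means of the Mettl3 groups did.

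Psmb8, another immunoproteasome subunit in the same cluster on chromosome 17, had 62 and 60 normalised counts in Mettl3 cKO, against 64 and 19 in Mettl3 WT, and 90 and 78 in Virma cKO, against 41 and 49 in Virma WT. It rose in Virma cKO by 0.85 ± 0.19 (log2, SE; limma adjusted p = 7.16e-05). In Mettl3 cKO it was called higher at 0.72 ± 0.28 (log2, SE; limma adjusted p = 0.0259), although both libraries lay within the Mettl3 WT pair. The Mettl3 WT pair decided both subunits in that line: without Mettl3 WT replicate 2 Psmb8 was at -0.0653 and did not pass, while Psmb9 passed as higher at 1.26. B2m, the light chain of class I, had 548 and 544 normalised counts in Mettl3 cKO, against 505 and 513 in Mettl3 WT, and 494 and 566 in Virma cKO, against 475 and 458 in Virma WT. It passed in Virma cKO at 0.18 ± 0.06 (log2, SE; limma adjusted p = 0.0081), a call lost without Virma cKO replicate 2 (0.08) or Virma WT replicate 2, and did not pass in Mettl3 cKO, at 0.10 ± 0.09 (log2, SE; limma adjusted p = 0.37).

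The change in Virma cKO was then tested against the change in Mettl3 cKO with an interaction term. It was greater in Virma cKO for 12 of the 31 genes and smaller for 2, where 22.8% of all tested genes were greater and 26.6% smaller. Of the 12, 9 were interferon-induced genes out of 13 tested, and the others were the sensor Eif2ak2, the factor Irf1 and the transporter gene Tap1. A further list of interferon-induced genes did not show such a tally: 4 of its 20 tested genes were greater and 2 smaller, with a median difference of 0.16 (log2), against 0.54 for the 13 genes. The difference was 2.45 ± 0.29 for Rsad2 (log2, SE; limma adjusted p = 1.51e-10), 1.75 ± 0.25 for Trim12c (log2, SE; limma adjusted p = 2.09e-08), 0.37 ± 0.06 for Trim25 (log2, SE; limma adjusted p = 1.08e-07) and 0.53 ± 0.10 for Irf1 (log2, SE; limma adjusted p = 1.99e-05). Oas1a was smaller by -1.14 ± 0.32 (log2, SE; limma adjusted p = 0.00211), a call lost without Mettl3 WT replicate 1, and Irf3 by -0.24 ± 0.10 (log2, SE; limma adjusted p = 0.0462), a call lost in 10 alternatives. That of Tap1, 0.25 ± 0.10 (log2, SE; limma adjusted p = 0.0399), was lost in 6 alternatives and turned to -0.04 with Virma WT as control of both effects.

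The comparisons also depend on the WT pairs, which differed from each other. In Virma WT over Mettl3 WT 7 of the 31 genes were higher and 7 lower, where 25.8% of all tested genes were higher and 20.9% lower. Bst2 was lower in Virma WT by -0.89 ± 0.09 and Stat2 by -0.71 ± 0.09 (log2, SE), and Ddx58 was higher by 0.77 ± 0.12.

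Mettl3 cKO was therefore also set against Virma WT. There 15 of the 31 genes were higher and 3 lower, where 32.6% of all tested genes were higher and 34.7% lower. The genes higher in Mettl3 cKO against either WT pair were 8, namely Dhx58, Mavs, Irf3, Irf9, Parp9, Tap1, H2-K1 and H2-D1, and Trim25 was lower against either. Antigen presentation had 5 genes higher of 6, with a median of 0.53 on the log2 scale, while the interferon-induced genes had 5 higher and 1 lower of 13, with a median of 0.11. H2-K1 was higher by 0.91 ± 0.05 and Tap1 by 0.65 ± 0.06 (log2, SE). Of the 14 fibroblast markers 1 was higher and 11 lower in Mettl3 cKO than in Virma WT. These markers also differed between the WT pairs, with 13 higher and 1 lower in Virma WT over Mettl3 WT. Their part in the result was not tested.

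**Figure D5:**
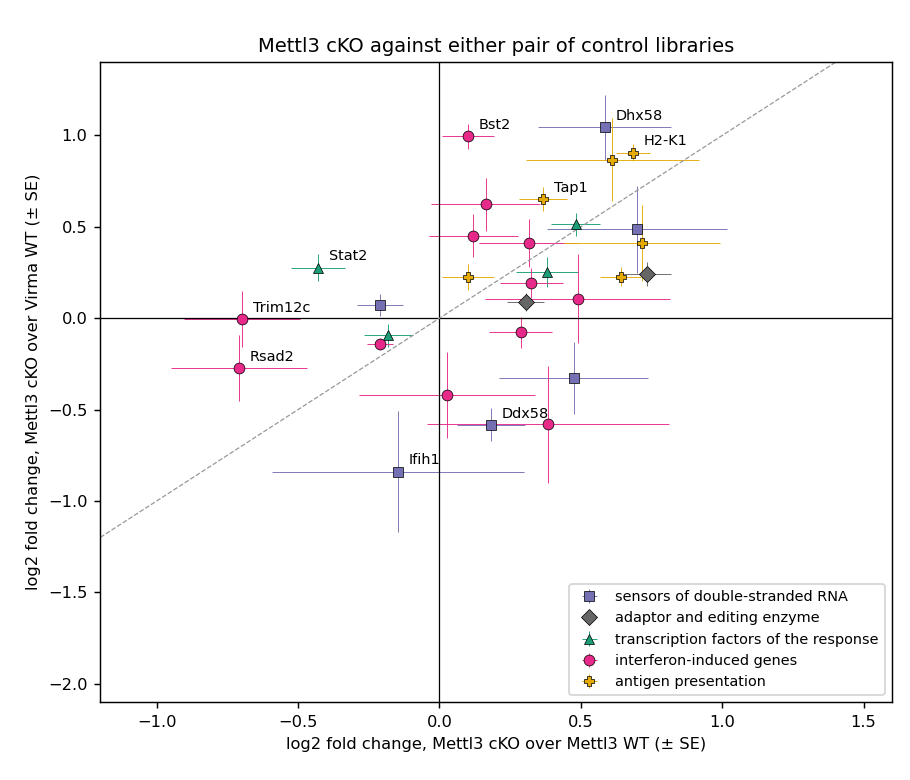
Log2 fold change of the tested genes in Mettl3 cKO against Mettl3 WT (x) and against Virma WT (y), with SE bars and a dashed line of equal values; Cxcl10 is left out because it is listed at 0 in both Mettl3 WT libraries. Dhx58, Tap1 and H2-K1 are above 0 on both axes, Stat2 changes sign, and Rsad2 and Trim12c lie nearer 0 on the y axis.

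The wider pathway was read from further lists, whose counts are set beside the shares over all tested genes. These shares were 25.8% higher and 27.6% lower in Mettl3 cKO, and 34.9% higher and 36.5% lower in Virma cKO. None of the 6 listed interferons, among them Ifnb1, the main early interferon, was above 1 normalised count in any library, and Ifnb1 is listed at 0 in all 8. Of the 6 receptor subunits 3 rose and none fell in Mettl3 cKO, and 5 rose and none fell in Virma cKO. Ifnar1, a chain of the type I interferon receptor, was in both, with 891 and 856 normalised counts in Mettl3 cKO, against 706 and 720 in Mettl3 WT, and 1064 and 1027 in Virma cKO, against 823 and 800 in Virma WT. No receptor passed as higher in Mettl3 cKO against Virma WT, and Ifngr2, a chain of the receptor for interferon gamma, passed as lower, at -0.28.

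Of 17 tested genes that signal below sensors and receptors, 6 rose and 2 fell in Mettl3 cKO, and 10 rose and 6 fell in Virma cKO. Ikbke, a kinase that activates IRF3, had 127 and 112 normalised counts in Mettl3 cKO, against 43 and 36 in Mettl3 WT, and 273 and 275 in Virma cKO, against 64 and 62 in Virma WT. Sting1, the adaptor of the cytosolic DNA sensor, had 545 and 571 normalised counts in Mettl3 cKO, against 257 and 284 in Mettl3 WT, and 767 and 688 in Virma cKO, against 305 and 316 in Virma WT. For both genes the knockout pairs lay above all WT libraries. Ikbke rose by 1.51 ± 0.19 in Mettl3 cKO and 2.05 ± 0.13 in Virma cKO, and Sting1 by 1.04 ± 0.10 in Mettl3 cKO and 1.22 ± 0.07 in Virma cKO (log2, SE).

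Of 20 further interferon-induced genes that could be tested, 10 rose and 2 fell in Mettl3 cKO, and 12 rose and 2 fell in Virma cKO. Oasl1, a synthetase-like regulator, rose by 1.28 ± 0.23 in Mettl3 cKO and 1.32 ± 0.16 in Virma cKO (log2, SE). The guanylate-binding protein gene Gbp2 rose by 0.99 ± 0.20 and 1.39 ± 0.13 and the immunity-related GTPase gene Irgm1 by 1.07 ± 0.15 and 1.67 ± 0.10 (log2, SE) in the same comparisons. Against Virma WT the Mettl3 cKO values of Gbp2 and Irgm1 were 0.14 and -0.17 and did not pass, while Oasl1 passed at 0.95. Of 11 further antigen presentation genes 6 rose and 1 fell in Mettl3 cKO, and 7 rose and 2 fell in Virma cKO. Tap2, the partner of TAP1, was up by 0.77 ± 0.19 in Mettl3 cKO and 0.79 ± 0.13 in Virma cKO (log2, SE). Those that fell in Virma cKO were Calr, at -0.78 ± 0.02, and Pdia3, at -0.22 ± 0.02 (log2, SE). The summed level of all 12 genes of this list averaged 81500 normalised counts in Mettl3 cKO and 82540 in Mettl3 WT. It was lower in Virma cKO, at 58460, than in Virma WT, at 76130.

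Of 15 other genes for proteins that bind or process double-stranded RNA and related nucleic acids, 5 rose and 6 fell in Mettl3 cKO, and 3 rose and 10 fell in Virma cKO. Trex1, a nuclease that clears cytosolic DNA, was the largest riser in both, with log2 fold changes of 0.85 ± 0.15 in Mettl3 cKO and 0.93 ± 0.10 in Virma cKO (SE). Dgcr8, a subunit of the microRNA processor, fell by 0.56 in Mettl3 cKO and by 0.28 in Virma cKO on the log2 scale.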

How the data were processed

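Total RNA libraries of 8 samples were counted per gene by the authors. Although the table is named for raw counts, the values deposited for its 21812 genes are scores, counts that had been scaled per library and rounded: in both Mettl3 WT libraries all values up to 400 are rounded multiples of 1 step, the values 1, 2 and 4 do not occur, and the median-ratio size factors of the 8 libraries lie between 1 and 1.014. Raw counts and scaling factors are not used here. A count test had been planned, but such values do not suit one, so log2(value + 4) was tested with limma 3.58.1 in R 4.3.3 (all 4 groups together, trended robust variances, a weight for each group, 4 residual degrees of freedom, Benjamini-Hochberg threshold 0.05). The 13740 genes with a mean value of at least 10 were tested. Group weights ran from 0.467 (Mettl3 WT) to 1.62 (Virma cKO) and were estimated from these same data, by the residual spread of each group over all tested genes. With the steps undone, the chi-square per degree of freedom between the libraries of a pair ran from 1.08 (Mettl3 WT, close to sampling noise) to 2.03 (Virma WT). Each library entered the fit as a separate sample, so n counts 2 libraries per group. This spread does not show that they came from separate cultures. The submitters' processing notes name STAR 2.7.11b, the build mm39, Subread, DESeq2, FastQC 0.12.1 and Trim Galore. Per the labels, TRIzol served for extraction and 2 library kits were used; which kit made which library, and whether counting used strand, the sources used here do not say, so genes with near-copies or overlapping partners are uncertain. With 2 libraries against 2, no exact permutation test can go below p = 0.333, so groups whose libraries do not overlap are weak evidence by themselves. Exonic lengths came from GENCODE M21 and promoters from RefSeq. The genes and lists were chosen with earlier results of these data known. All 36 genes are described. Genes of the further lists were named from the up to 3 with the largest called change in each comparison. Ifnb1 was named for its values of 0, and Calr and Pdia3 as those of their list that fell in Virma cKO. Mx1 and Mx2 are not analysed here. Alternatives were other pseudocounts, filters and scalings, 1 variance for all groups, the Virma cKO pair as 1 sample, a replicate block, each line alone, removal of a length and GC trend (available for 99.4% of tested genes), another control pair and leaving out each library.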

Additional observations from a re-analysis of the deposited data

Results flagged for a closer look

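Each gene below was flagged because the test of a different change between the lines passed, the change in Virma cKO minus that in Mettl3 cKO (log2, limma adjusted p under 0.05). Among the interferon-induced genes the difference was 2.45 for Rsad2, 1.75 for Trim12c, 0.79 for Trim21, 0.70 for Ifi35, 0.67 for Parp14, 0.48 for Dtx3l, 0.41 for Bst2, 0.41 for Parp9 and 0.37 for Trim25. It was 0.53 for the factor Irf1, 0.45 for the sensor Eif2ak2 and 0.25 for Tap1. The difference was negative for the sensor Oas1a, at -1.14, and for the factor Irf3, at -0.24.

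Further genes of the pathway are a selection, the up to 3 with the largest called change per list and comparison. Their lists as wholes were mixed in this test: greater and smaller changes in Virma cKO numbered 7 and 2 of 17 genes of signalling, 4 and 2 of 20 interferon-induced genes, 3 and 3 of 11 antigen presentation genes and 4 and 6 of 15 genes for RNA binding and processing. Over all tested genes 22.8% were greater and 26.6% smaller. Among the selected genes the difference was 1.27 for Erap1, an aminopeptidase that trims peptides for class I, 0.95 for Irf2, a relative of IRF1, 0.61 for Irgm1, 0.55 for Ikbke, 0.51 for Tapbp, which holds class I at the transporter, 0.40 for Stau2, which binds double-stranded RNA, and 0.27 for Dgcr8. It was -0.78 for Rnaseh2c and -0.29 for Rnaseh2b, subunits of the nuclease for RNA paired with DNA.

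Erap1 had 116 and 118 normalised counts in Mettl3 cKO, against 138 and 99 in Mettl3 WT, and 275 and 307 in Virma cKO, against 121 and 116 in Virma WT, so that only the Virma cKO pair stood apart.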

How the results depend on the processing

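Against the 12 higher and 5 lower genes of the Mettl3 comparison, Virma WT as control gave 3 lower, and leaving out 1 library gave 9 to 12 higher and 2 to 6 lower, with 2 lower without Mettl3 WT replicate 1. In the Virma comparison (26 and 2), leaving out 1 library gave 24 to 26 higher and 2 lower. For the difference (12 and 2), Virma WT as control of both effects gave 20 and 6; no filter on low values, total-count scaling, the Virma cKO pair as 1 sample, 1 variance for all groups and the length and GC trend removed gave 1 lower each; leaving out 1 library gave 9 to 13 higher and 0 to 3 lower, with 0 lower without Mettl3 WT replicate 1 and 1 lower without Mettl3 cKO replicate 1 or 2, Virma WT replicate 2 or Virma cKO replicate 1. Between controls no filter gave 11 higher (7 with it). Over all genes the difference called 4907 higher with Virma WT as control of both (3129 otherwise), and with total-count scaling 60.4% of its calls were higher, against 46.1%.

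With Virma WT as control, Mettl3 cKO values turned to -0.58 for Ddx58, 0.073 for Eif2ak2, 0.28 for Stat2, -0.077 for Dtx3l, -0.28 for Ifngr2, -0.17 for Irgm1 and -0.58 for H2-Q4. With the length and GC trend removed Bst2 was at -0.23, and without Mettl3 WT replicate 2 Psmb8 was at -0.0653, in a range of -0.0653 to 1.50 over the fits that left out 1 library. With Virma WT as control of both effects, the difference turned to -0.43 for Dhx58, 0.45 for Mavs, 0.17 for Adar, -0.48 for Bst2, -0.038 for Tap1, 0.36 for H2-D1 and 1.01 for H2-Q4. The cause of these shifts was not tested.

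Replicate numbers shared between groups did not pair the libraries (correlations of deviations between -0.0292 and 0.0537). With the replicate block 12 genes were higher and 5 lower in the Mettl3 comparison, 26 and 2 in the Virma comparison, and 12 and 2 in the difference. The planned count tests with DESeq2, and its size factors in a count fit, were not run because the values are not raw counts. Pseudocounts 1 and 16, the filter at 40, scaling on log values, 1 variance, the Virma cKO pair as 1 sample and Virma WT as control of both effects were chosen after seeing the data. Depth limits the scarce genes: at or below 10 normalised counts in both libraries were 7 of the 36 genes in Mettl3 cKO, 7 in Mettl3 WT, 1 in Virma cKO and 3 in Virma WT. A fit that leaves a group with 1 library assumes that it varies like the others.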

Other observations

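Of the JAK kinases of the interferon receptors, Jak1 and Jak2 differed between the lines in their calls and Tyk2 did not. Jak2 had 448 and 393 normalised counts in Mettl3 cKO, against 410 and 441 in Mettl3 WT, and 667 and 690 in Virma cKO, against 370 and 357 in Virma WT, a log2 fold change of 0.89 ± 0.06 in Virma cKO (SE). Jak1 rose there by 0.50 ± 0.04 (log2, SE), whereas Tyk2 fell by 0.25 in Mettl3 cKO and by 0.28 in Virma cKO on the log2 scale. Socs1, a brake on these kinases, had 157 and 177 normalised counts in Mettl3 cKO, against 130 and 116 in Mettl3 WT, and 103 and 75 in Virma cKO, against 124 and 127 in Virma WT, so that it rose in Mettl3 cKO and fell in Virma cKO. The Virma effect minus the Mettl3 effect, in log2, was 0.91 ± 0.11 for Jak2 (SE; limma adjusted p = 9.74e-10), 0.47 ± 0.07 for Jak1 (SE; limma adjusted p = 2.3e-08), -0.92 ± 0.22 for Socs1 (SE; limma adjusted p = 0.00031) and -0.04 ± 0.10 for Tyk2 (SE; limma adjusted p = 0.781). These genes were singled out after their values were seen.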
